A study of Mus musculus with 6 samples.

Results

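The receptors of colony-stimulating factors and of a set of cytokines that act on myeloid cells were followed as a class of 10 genes among the 55291 in the tables. They were chosen by symbol as Csf1r, Csf2ra, Csf2rb, Csf2rb2, Csf3r, Il4ra, Il6ra, Il10ra, Tgfbr1 and Tgfbr2, and 10 of 10 were found in both tables. RNA was sequenced in 6 libraries from the RAW264.7 line, mouse macrophages from ascites, after 4 days with RANKL (50 ng/mL), the cytokine that drives osteoclast formation. The shUSP8 group (n = 3, genotype label USP8 Knock Down) carried a short hairpin against Usp8, and the shCtrl group (n = 3, genotype label WT) carried a control hairpin, with the same line, medium and RANKL in both. Neither the hairpin sequences nor the cultures behind each library are given in the sources used here. The p-values therefore measure library-to-library spread, and that spread may be technical.

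Usp8 encodes a deubiquitinating enzyme of endosomes. Cell surface receptors that have been tagged with ubiquitin after ligand binding are sorted at endosomes, either back to the surface or into vesicles bound for the lysosome, and USP8 acts at this step by removing ubiquitin. The receptors studied here are glycoproteins of the plasma membrane that pass through this route: CSF1R is a receptor tyrosine kinase, the colony-stimulating factor and interleukin receptors work through JAK kinases and STAT factors, and the TGF-beta receptors are serine/threonine kinases that phosphorylate SMAD factors. RNA sequencing measures their transcripts and says nothing of the amount of receptor protein at the surface.

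Total expected counts were 19973522 to 20142107 in shUSP8 libraries and 20121644 to 20213939 in shCtrl libraries. Usp8 itself had 656, 720 and 718 expected counts in shUSP8 libraries and 2785, 2561 and 2645 in shCtrl libraries. Its log2 fold change was -1.999 (SE 0.06; edgeR quasi-likelihood test, Benjamini-Hochberg adjusted p = 1.47e-10). The macrophage markers were present, with 7 of 7 tested, and their summed level was 5004 to 5554 CPM (counts scaled by TMM factors to a common library size) in shUSP8 and 3164 to 3318 CPM in shCtrl. Of the 7, 5 were called higher, 1 lower and 1 neither, against 17.8% of all genes tested called higher and 14.9% lower. The osteoclast markers were present too, 8 of 8 tested, at 10576 to 10916 CPM in shUSP8 and 12944 to 13248 CPM in shCtrl. Of the 8, 4 were called lower (3 with any 1 library left out) and 4 were not called. The part of either shift in the receptor results was not tested. Lymphocyte markers summed to at most 0.241 CPM in any library, with 7 of 9 at 0 in all 6. Stromal markers summed to 7.81 to 8.30 CPM in shUSP8 and 6.54 to 17.3 CPM in shCtrl, and none of the 4 tested was called (2 without shCtrl_1 and 1 without shCtrl_3). Of 6 dendritic cell markers, 4 were tested, with Itgax higher and Cd83 lower, and the sums were 164 to 187 CPM in shUSP8 and 133 to 139 CPM in shCtrl. In bulk RNA, fewer cells of a type and less RNA per cell cannot be told apart.

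The receptors spanned a wide range of levels. In TPM, a level per transcript length that can be compared between genes, Csf1r averaged 716 ± 76.7 in shUSP8 and 771 ± 26.7 in shCtrl (SD, n = 3 each). It held 64.0% to 67.2% of the summed TPM of the class in shUSP8 libraries and 66.4% to 69.6% in shCtrl libraries. Below it came Csf2ra (137 ± 14.2 TPM in shUSP8 and 101 ± 13.1 TPM in shCtrl) and Tgfbr1 (75.1 ± 11.9 TPM in shUSP8 and 102 ± 3.81 TPM in shCtrl). Csf2ra lay above Tgfbr1 in every shUSP8 library. In shCtrl their ranges overlapped: Csf2ra lay above Tgfbr1 in shCtrl_1 (107 against 100 TPM) and shCtrl_2 (110 against 100 TPM). It lay below in shCtrl_3 (86.3 against 107 TPM). Tgfbr2 and Csf2rb were neighbours whose ranges overlapped in both groups, followed by Csf2rb2 at 34.3 ± 1.81 TPM in shUSP8 and 38.1 ± 1.65 TPM in shCtrl. Il6ra stood at 11.05 ± 1.35 TPM in shUSP8 and 9.14 ± 0.537 TPM in shCtrl. Il4ra, Il10ra and Csf3r stayed under 10 TPM in every library, and Csf3r was the lowest at 1.07 ± 0.139 TPM in shUSP8 and 0.290 ± 0.121 TPM in shCtrl.

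**Figure D1:**
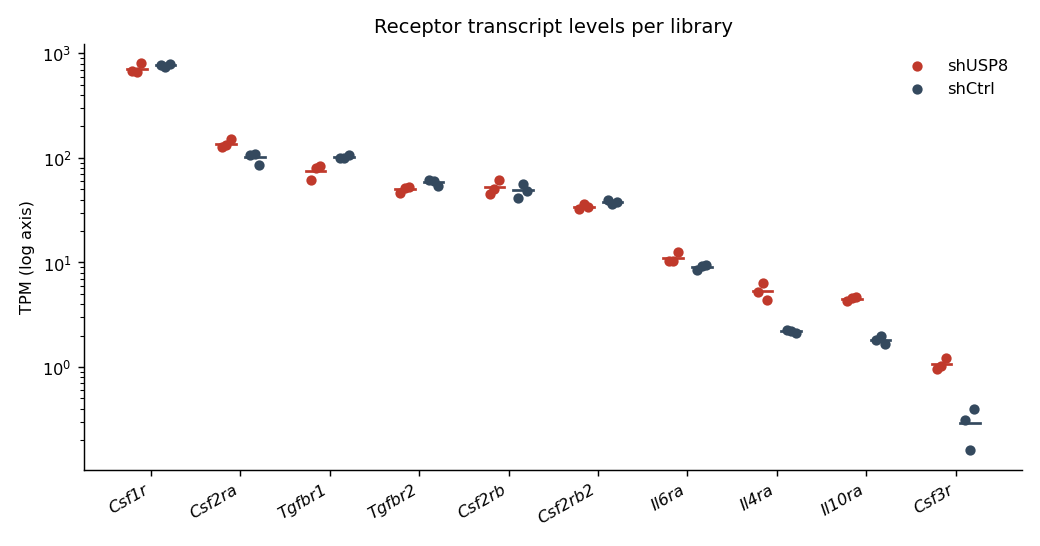
TPM of each receptor gene on a log axis, ordered by the mean of 6 libraries, with shUSP8 points to the left of shCtrl points and a short bar at each group mean (n = 3). Csf1r lies above the other receptors in all 6 libraries, and Csf3r lies lowest with its 2 groups apart.

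Of the 10 receptors, 4 were higher in shUSP8, 4 were lower and 2 did not pass the test (edgeR, adjusted p under 0.05 over 12440 genes). Over all genes tested, 32.8% were called, 17.8% higher and 14.9% lower. The CPM of the 2 groups did not overlap for 8 of the 10 receptors, against 47.8% of all genes tested. The receptors that rose were Csf2ra, Csf3r, Il4ra and Il10ra. Of these, Csf3r passed the filter on low counts only through the shUSP8 libraries, the group where it was high. Those that fell were Csf1r, Csf2rb2, Tgfbr1 and Tgfbr2, which include the most abundant transcript of the class. On log2(TPM + 1), limma called the same 4 higher and only Tgfbr1 lower (23.1% of all genes called), a scale on which the median gene lay 0.11 higher in shUSP8. The summed CPM of the 10 receptors was 2018 to 2150 in shUSP8 and 2404 to 2474 in shCtrl.

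**Figure D2:**
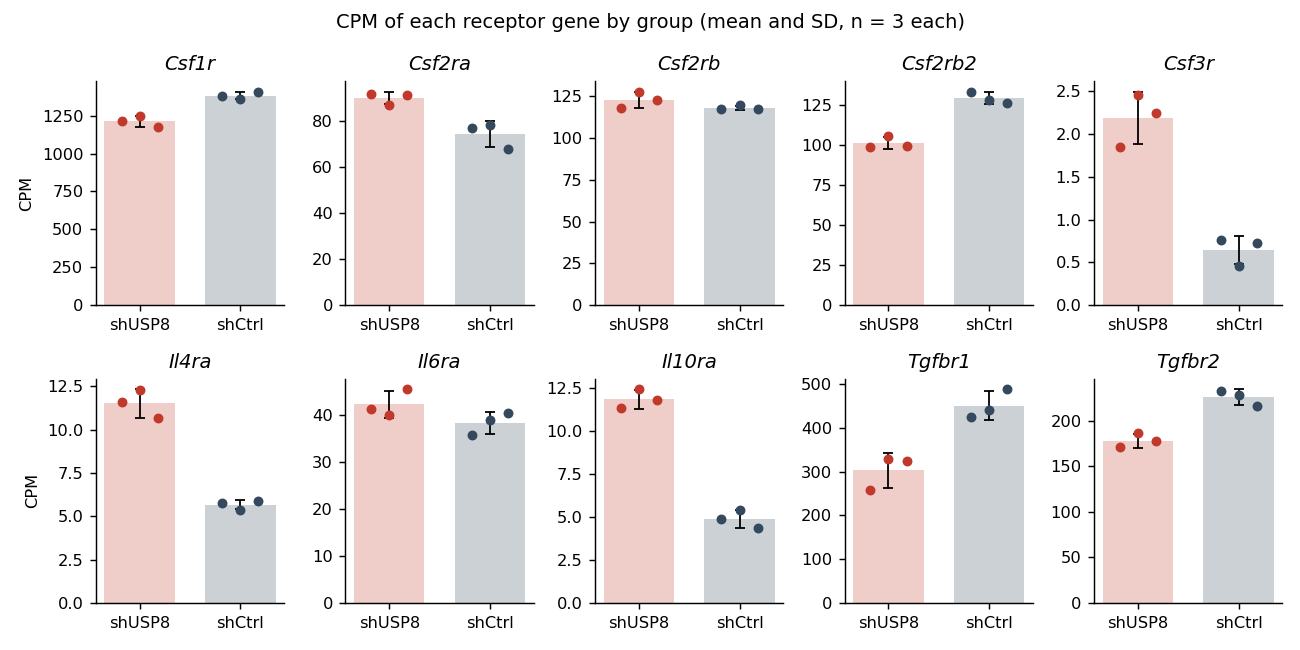
CPM of each receptor gene, with 1 point per library, bars at the group mean and error bars of 1 SD (n = 3 each), each panel from 0 on its own axis. The points of the groups stand apart in all panels except those of Csf2rb and Il6ra.

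CSF1R binds M-CSF and IL-34 and is the receptor on which macrophages and osteoclast precursors depend for survival and growth. Csf1r (chromosome 18, 61100598 to 61132149, plus strand, GRCm38) had 1215, 1248 and 1177 CPM in shUSP8 libraries and 1378, 1360 and 1408 CPM in shCtrl libraries. All shUSP8 values were below all shCtrl values, and the spread within a group was small. Its log2 fold change was -0.19 (SE 0.05; edgeR adjusted p = 0.0154), a level 0.878 times that of shCtrl. The call was lost without shUSP8_3 (adjusted p = 0.0706), shCtrl_1 (0.0561) or shCtrl_2 (0.0528), with library totals in place of TMM factors (-0.11, adjusted p = 0.105) and on log2(TPM + 1) (-0.11, adjusted p = 0.343). In TPM the groups overlapped, at 680, 664 and 804 in shUSP8 and 774, 744 and 797 in shCtrl. Hmgxb3 lies over part of Csf1r on the opposite strand, where reads of the pair cannot be told apart without strand. It had 953 to 1032 expected counts in shUSP8 and 812 to 895 in shCtrl, against 24101 to 25859 and 26919 to 27243 for Csf1r.

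The GM-CSF receptor pairs a specific alpha chain, CSF2RA, with the common beta chain CSF2RB, which also serves IL-3 and IL-5. Mice carry a further beta chain, CSF2RB2, that serves IL-3. The alpha chain transcript rose and the extra beta chain transcript fell, while the common beta chain did not pass the test. Csf2ra (chromosome 19, 61223957 to 61228429, minus strand) had 91.7, 86.6 and 91.2 CPM in shUSP8 libraries and 76.9, 78.1 and 67.6 CPM in shCtrl libraries. Its groups did not overlap, and its log2 fold change was 0.28 (SE 0.06; edgeR adjusted p = 0.00466). Csf2rb2 (chromosome 15, 78282507 to 78305721, minus strand) had 98.6, 106 and 99.5 CPM in shUSP8 libraries and 133, 128 and 126 CPM in shCtrl libraries. The groups stood apart, and the fitted difference was -0.35 (log2, SE 0.05; edgeR adjusted p = 2.05e-04). This call was lost on log2(TPM + 1) (-0.15, adjusted p = 0.157). Csf2rb (chromosome 15, 78325752 to 78353847, plus strand) had 118, 128 and 122 CPM in shUSP8 libraries and 117, 119 and 117 CPM in shCtrl libraries. These groups overlapped, and the difference of 0.06 on the log2 scale had a 95% interval of -0.05 to 0.16 (edgeR adjusted p = 0.401). With effective-length offsets the value for Csf2rb was -0.03 (adjusted p = 0.902).

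Csf2rb and Csf2rb2 are near-identical neighbours on chromosome 15, and how reads common to both were divided was not tested. Their coding sequences are 2688 and 2634 bases long and match at 2503 of 2628 aligned positions (95.2%), with a longest identical run of 242 bases. The first 150 coding bases of each, as long as 1 read, show how little separates them. They are taken from the GENCODE M21 transcripts, 5′ to 3′, with capitals at the 6 positions where the pair differ:
Csf2rb: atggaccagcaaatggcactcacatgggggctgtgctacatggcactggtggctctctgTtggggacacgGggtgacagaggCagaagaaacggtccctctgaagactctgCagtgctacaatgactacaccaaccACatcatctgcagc
Csf2rb2: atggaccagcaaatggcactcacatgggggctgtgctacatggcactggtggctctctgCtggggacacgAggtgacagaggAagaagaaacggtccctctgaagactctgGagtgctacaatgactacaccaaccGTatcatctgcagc
Of all stretches of 150 bases in their transcripts, 2.30% of those of Csf2rb and 3.34% of those of Csf2rb2 also occur in the other gene. None of the other 8 receptors shares a stretch of that length with transcripts of another gene read in the same direction. Matches to the opposite strand were not searched. Csf2rb held 54.5%, 54.7% and 55.1% of the pair's expected counts in shUSP8 libraries and 46.8%, 48.2% and 48.2% in shCtrl libraries. The share was thus higher in each shUSP8 library, at 54.8% ± 0.322 in shUSP8 and 47.7% ± 0.804 in shCtrl (SD, n = 3 each; exact permutation test, two-sided, p = 0.1). No smaller p can arise from 3 libraries against 3. Summed into 1 row, the pair had 4440, 4830 and 4545 expected counts in shUSP8 libraries and 4944, 4898 and 4710 in shCtrl libraries. The log2 fold change of the sum was -0.14 (SE 0.05; edgeR adjusted p = 0.0428). The effective length of Csf2rb, which the TPM scale divides by, differed up to 1.39-fold between libraries, against 1.11-fold for the median gene. In TPM, Csf2rb was 1.53 ± 0.260 times Csf2rb2 in shUSP8 and 1.29 ± 0.259 times in shCtrl (SD, n = 3 each). These ratios overlapped between groups (exact permutation p = 0.4, adjusted p = 0.4). The separation of the pair was thus seen in expected counts and not in TPM.

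**Figure D3:**
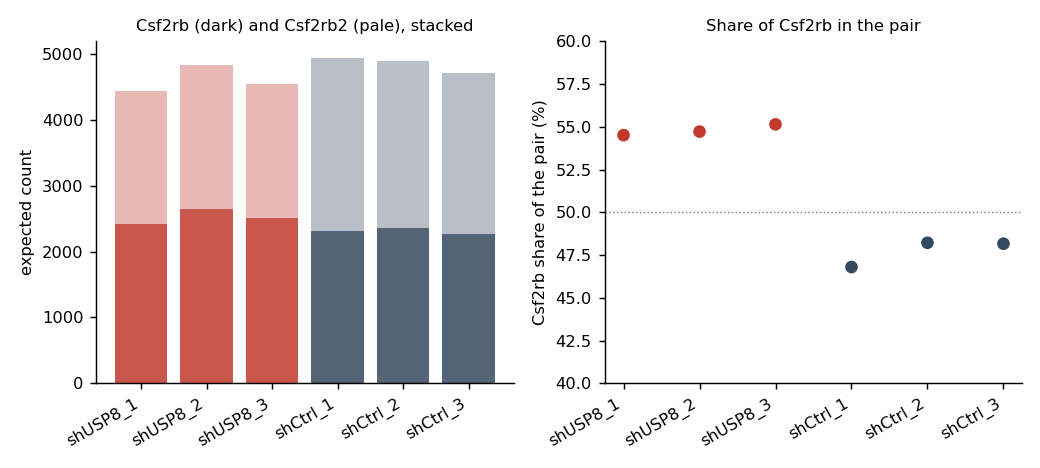
Left, expected counts of Csf2rb (dark) and Csf2rb2 (pale) stacked for each library, shUSP8 in red and shCtrl in grey. Right, the share of the pair's counts given to Csf2rb in percent, on an axis from 40% to 60%: the 3 shUSP8 libraries lie at 54.5% to 55.1% and the 3 shCtrl libraries at 46.8% to 48.2%.

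Set against its partner chains within each library, Csf2ra was 1.62, 1.53 and 1.597 times the summed TPM of both beta chains in shUSP8 libraries and 1.33, 1.18 and 0.996 times in shCtrl libraries. These ratios did not overlap between groups (two-sided exact permutation p = 0.1, adjusted to 0.16 over the 8 chain ratios computed). The ratio to Csf2rb alone did overlap (exact permutation p = 0.2, adjusted p = 0.267).

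CSF3R is the receptor for G-CSF, the growth factor of neutrophils. Csf3r (chromosome 4, 126024550 to 126044440, plus strand) was near the floor of detection in these cells, with 38, 51 and 46 expected counts in shUSP8 libraries and 15, 9 and 14 in shCtrl libraries. Every shUSP8 library lay above every shCtrl library. The log2 fold change was 1.75 (SE 0.26; edgeR adjusted p = 3.10e-04), the highest of the class, with a 95% interval of 1.18 to 2.33. Csf3r passed the filter on low counts only through the shUSP8 libraries, so its being tested already rested on its level in that group. Neutrophil markers were scarce, with 6 of 12 at 0 in all 6 libraries, among them the protease Elane and the surface protein Ly6g. Their summed level was 1.03 to 1.27 CPM in shUSP8 and 0.310 to 0.456 CPM in shCtrl, and its part in the Csf3r value was not tested. The marker tested, S100a8, a calcium-binding protein gene, passed the filter only through shUSP8 too. It had a log2 fold change of 1.03 (edgeR adjusted p = 0.0468), a call lost without shUSP8_1 (0.159), shUSP8_3 (0.102), shCtrl_1 (0.0798), shCtrl_2 (0.117) or shCtrl_3 (0.155). The S100a8 call was also lost in DESeq2 (0.29) and in edgeR with no filter (0.102) or the replicate block (0.0674).

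TGF-beta binds the type II receptor TGFBR2, which then phosphorylates the type I receptor TGFBR1. TGF-beta is known to strengthen RANKL-driven osteoclast formation in macrophage cultures. Both receptor transcripts fell. Tgfbr1 (chromosome 4, 47353222 to 47414931, plus strand) had 257, 329 and 323 CPM in shUSP8 libraries and 425, 440 and 488 CPM in shCtrl libraries. The shUSP8 values lay below every shCtrl value, with shUSP8_1 lowest of all. Its log2 fold change was -0.57 (SE 0.10; edgeR adjusted p = 0.00268), the lowest of the class, and -0.47 (adjusted p = 2.60e-05) without shUSP8_1. Tgfbr2 (chromosome 9, 116084293 to 116175360, minus strand) had 171, 186 and 178 CPM in shUSP8 libraries and 233, 228 and 217 CPM in shCtrl libraries. These groups did not overlap either, and the fitted log2 value was -0.34 (SE 0.05; edgeR adjusted p = 3.63e-04) and -0.21 (adjusted p = 0.0825) on log2(TPM + 1). The TPM of Tgfbr1 was 1.33, 1.55 and 1.595 times that of Tgfbr2 in shUSP8 libraries and 1.65, 1.67 and 1.97 times in shCtrl libraries (exact permutation p = 0.1, adjusted p = 0.16).

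The promoters of this pair, both of which fell, and of Csf2ra, which rose, are shown as the 250 bases before the RefSeq transcript start (GRCm38.p6, 5′ to 3′ on the strand of the gene). Capitals mark AGGAAG or GGGCGG on either strand, the core bound by PU.1 and other ETS factors and the GC box:
Tgfbr1 (chr4:47352972-47353221, plus strand): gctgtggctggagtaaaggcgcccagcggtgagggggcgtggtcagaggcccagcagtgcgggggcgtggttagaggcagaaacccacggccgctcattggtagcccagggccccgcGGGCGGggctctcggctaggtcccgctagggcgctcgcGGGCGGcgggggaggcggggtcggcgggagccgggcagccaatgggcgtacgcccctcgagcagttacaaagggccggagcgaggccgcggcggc
Tgfbr2 (chr9:116175364-116175613, minus strand): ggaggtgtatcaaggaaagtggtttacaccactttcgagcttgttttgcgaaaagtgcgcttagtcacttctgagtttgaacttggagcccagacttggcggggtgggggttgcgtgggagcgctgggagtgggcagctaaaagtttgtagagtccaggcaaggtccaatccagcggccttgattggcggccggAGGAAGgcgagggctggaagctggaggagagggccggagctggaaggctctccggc
Csf2ra (chr19:61228419-61228668, minus strand): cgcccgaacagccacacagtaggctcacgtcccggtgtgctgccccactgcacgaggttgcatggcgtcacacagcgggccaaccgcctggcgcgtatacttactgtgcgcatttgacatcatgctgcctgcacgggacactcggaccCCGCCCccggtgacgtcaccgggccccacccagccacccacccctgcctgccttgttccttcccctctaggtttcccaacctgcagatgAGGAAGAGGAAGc
The Tgfbr1 window is 74.8% GC with 2 GC boxes, the Tgfbr2 window 58.4% GC with 1 AGGAAG, and the Csf2ra window 64.8% GC with 2 adjoining AGGAAG beside the start and 1 GC box. The median promoter was 52.4% GC. RefSeq windows were listed for 7 of the 10 receptors, 8 windows in all, since Tgfbr1 had 2. AGGAAG was found in 7 of the 8, in receptors that rose and that fell alike, against 29.5% of 32851 promoters. The window without it was that of Tgfbr1 shown above. Tgfbr1 had it only in its other window (chr4:47385966-47386215), which lies inside the gene. GGGCGG was found in 3 of the 8, against 32.7%, and the gamma-activated site TTCNNNGAA in 1, that of Csf2rb2, against 7.02%. The interferon-stimulated response element GAAANNGAAA, the STAT6 site TTCNNNNGAA and the AP-1 site TGANTCA were found in none of the 8 windows, against 2.98%, 5.85% and 6.75% of promoters. Both strands were searched, and a window counted once per motif however many matches it held. No motif in this set contains another.

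The 3 interleukin receptor chains were at low to moderate levels, and 2 of the 3 rose. IL4RA is the chain through which IL-4 and IL-13 activate STAT6, and IL-4 is a known inhibitor of osteoclast formation. Il4ra (chromosome 7, 125552120 to 125579474, plus strand) had 11.6, 12.3 and 10.6 CPM in shUSP8 libraries and 5.77, 5.36 and 5.89 CPM in shCtrl libraries. The groups lay far apart, and Il4ra rose 2.03-fold (1.02 on the log2 scale, SE 0.10; edgeR adjusted p = 9.91e-06). IL10RA is the ligand-binding chain for IL-10, a cytokine that restrains macrophage activation through STAT3. Il10ra (chromosome 9, 45253837 to 45269149, minus strand) had 11.3, 12.4 and 11.8 CPM in shUSP8 libraries and 4.86, 5.41 and 4.34 CPM in shCtrl libraries. Its groups did not overlap, and it rose 2.43-fold (log2 fold change 1.279, SE 0.11; edgeR adjusted p = 2.27e-06). IL6RA binds IL-6 and passes the signal to the shared chain gp130. Il6ra (chromosome 3, 89864059 to 89913196, minus strand) had 41.4, 40.1 and 45.5 CPM in shUSP8 libraries and 35.9, 38.9 and 40.4 CPM in shCtrl libraries. These groups overlapped, and the log2 difference of 0.14 had a 95% interval of -0.01 to 0.29 (edgeR adjusted p = 0.148). With library totals it was 0.21 (adjusted p = 0.0300). In TPM the groups did not overlap, at 10.27, 10.27 and 12.6 in shUSP8 and 8.53, 9.35 and 9.54 in shCtrl. On log2(TPM + 1), limma did not call Il6ra (0.24, adjusted p = 0.122).

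**Figure D4:**
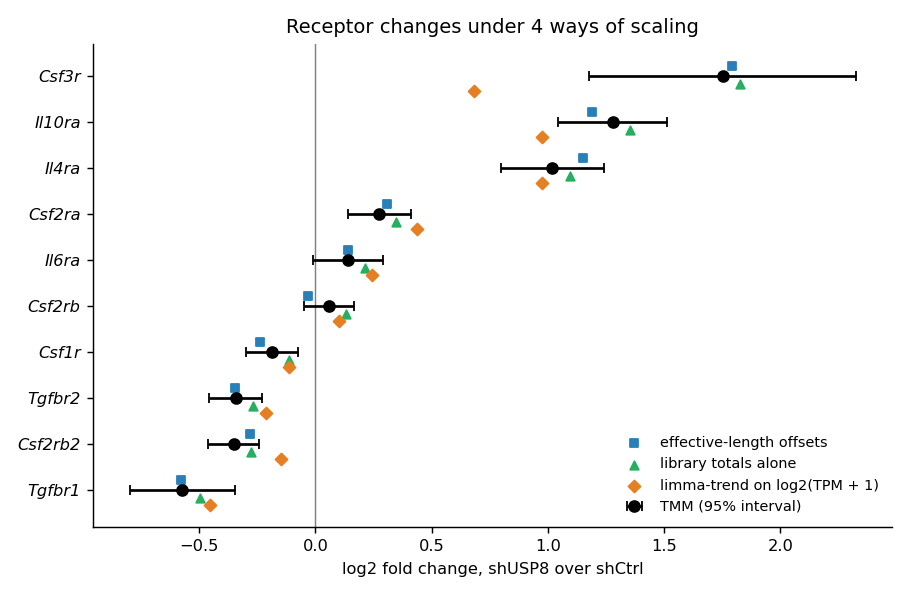
Log2 fold change of each receptor gene, shUSP8 over shCtrl, with the 95% interval of the fit with TMM factors (black) and the values with effective-length offsets, library totals and log2(TPM + 1). Csf3r, Il10ra, Il4ra, Csf2ra and Il6ra lie right of 0 under all 4, Tgfbr1 lies lowest, and Csf2rb lies on both sides of 0.

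The partner chains of the interleukin receptors did not all move with them. Il10rb, the signalling partner of IL10RA, was at 89.5 ± 4.06 CPM in shUSP8 and 83.3 ± 3.48 CPM in shCtrl (log2 fold change 0.10, adjusted p = 0.170; edgeR). The TPM of Il10ra was 0.0614, 0.0612 and 0.0654 times that of Il10rb in shUSP8 libraries and 0.0301, 0.0310 and 0.0273 times in shCtrl libraries, without overlap (exact permutation p = 0.1, adjusted p = 0.16). Il6st, which encodes gp130, was at a log2 fold change of -0.06 (edgeR adjusted p = 0.603). Il2rg, the common gamma chain that pairs with IL4RA on blood cells, rose to 57.1 ± 4.12 CPM in shUSP8, against 41.5 ± 0.567 CPM in shCtrl (log2 fold change 0.46, SE 0.06). Il13ra1, its alternative partner, fell to 53.5 ± 2.84 CPM in shUSP8, against 70.2 ± 5.52 CPM in shCtrl (-0.39, SE 0.07). The Il13ra1 call was lost in limma on log2(TPM + 1) (-0.25, adjusted p = 0.0589). The ratio of Il4ra to Il13ra1 in TPM was 0.279 ± 0.0486 in shUSP8 and 0.0959 ± 0.00804 in shCtrl (SD, n = 3 each; exact permutation p = 0.1, adjusted p = 0.16). Among the TGF-beta coreceptors, Eng, or endoglin, rose by 0.61 (SE 0.09; edgeR adjusted p = 2.95e-04), and by 1.05 with effective-length offsets, where the call was lost (adjusted p = 0.0570). Of 10 partner chains and coreceptors listed, 7 were tested, and 4 rose and 1 fell (median log2 fold change 0.33, against -0.0049 over all genes tested). Among all genes tested, 17.8% were called higher and 14.9% lower in this fit. With effective-length offsets, 1 rose and 1 fell (21.9% of all genes called). The IL-13 decoy receptor gene Il13ra2, 1 of the 4, passed the filter only through shUSP8, and its call was lost without shUSP8_3 (0.107), shCtrl_1 (0.101) or shCtrl_3 (0.106). That call was also lost with effective-length offsets (0.081) and in limma on log2(TPM + 1) (0.101).

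Of 13 genes for ligands of these receptors, 5 had no count in any library, among them Csf2, Il4 and Il6. Another 5 had counts too low to be tested, and 3 were tested. Csf1, the gene of M-CSF, had 26, 27 and 18 expected counts in shUSP8 libraries and 8, 4 and 7 in shCtrl libraries, and was called higher (log2 fold change 1.81, SE 0.34; edgeR adjusted p = 0.00165). It too passed the filter only through shUSP8. Il34, the other CSF1R ligand, was at 0.47 (SE 0.16; edgeR adjusted p = 0.0447), a call lost without shUSP8_1 (0.135), shUSP8_3 (0.103), shCtrl_1 (0.0651), shCtrl_2 (0.104) or shCtrl_3 (0.155). The Il34 call was also lost with effective-length offsets (0.279), in DESeq2 (0.181) and in limma on log2(TPM + 1) (0.19). Tgfb1 was abundant, at 267 ± 15.4 CPM in shUSP8 and 257 ± 10.7 CPM in shCtrl (0.06, adjusted p = 0.496).

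The counts of pathway genes that follow stand beside 17.8% of all genes tested called higher and 14.9% called lower. Downstream, 6 of the 7 TGF-beta reporter genes were tested and 6 rose, while both receptors fell; the median log2 fold change was 0.78. Id3, a repressor of helix-loop-helix factors, rose to 6.86 ± 0.661 CPM in shUSP8, against 3.21 ± 0.272 CPM in shCtrl (log2 fold change 1.09, SE 0.13; edgeR adjusted p = 5.01e-05). Its relative Id1 had 36, 23 and 30 expected counts in shUSP8 libraries and 6, 8 and 7 in shCtrl libraries, and passed the filter only through shUSP8. Id1 and Id3 are also targets of the related BMP receptors. With effective-length offsets, or on log2(TPM + 1), 4 of the 6 were called higher. The lists share genes: Skil is also counted among the SMAD factors and partners, and Smad7 among the feedback inhibitors. Socs3 is counted among both the feedback inhibitors and the STAT3 and STAT5 reporters. Stat6 is counted among both the JAK kinases and STAT factors and the transcription factors of receptor genes. Of 9 SMAD factors and partners, 4 rose and none fell (median 0.19). Smad3, a factor that TGFBR1 phosphorylates, rose to 10.7 ± 0.422 CPM in shUSP8, against 4.91 ± 0.552 CPM in shCtrl (1.12, SE 0.11; edgeR adjusted p = 9.03e-06). Zfyve9, the endosomal anchor that presents SMADs to the receptor, rose by 0.49 (SE 0.08), and Skil, a corepressor of SMADs that TGF-beta induces, by 0.39 (SE 0.09). Smad6, an inhibitory SMAD, rose by 1.48 (SE 0.18; edgeR adjusted p = 5.36e-05).

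STAT6 reporters were scarce. Of 7, 3 had no count in any library, and 2 were tested: the chemokine gene Ccl22 fell (log2 fold change -1.97, SE 0.27; edgeR adjusted p = 1.62e-04), and the mannose receptor gene Mrc1 was at -0.09 (adjusted p = 0.831). Of 6 STAT3 and STAT5 reporters tested, 2 were called, both higher (33.3%, against 32.8% of all genes called in either direction; median 0.18). Osm, the cytokine oncostatin M, rose by 0.74 (SE 0.10; edgeR adjusted p = 9.64e-05). Sbno2, a corepressor induced by IL-10, rose by 0.19 (SE 0.06; adjusted p = 0.0247), a call lost without shUSP8_2 (0.0637), shCtrl_1 (0.0889), shCtrl_2 (0.0853) or shCtrl_3 (0.0632). Of 8 JAK kinases and STAT factors, 3 (37.5%) were called higher and none lower (median 0.15), a share near the 32.8% of all genes called. Over the alternatives 1 to 5 were called higher, the 5 with library totals, where 72.6% of all calls were higher. Stat5a, which carries GM-CSF and IL-3 signals, rose by 0.35 (SE 0.07; edgeR adjusted p = 0.00301). Jak1 was called at 0.20 (adjusted p = 0.0143, lost without shUSP8_3 at 0.0508, without shCtrl_2 at 0.0844 and with effective-length offsets at 0.0714). Stat5b was called at 0.18 (adjusted p = 0.0498), a call lost with each library left out except shUSP8_1. That call was also lost in edgeR with RLE scaling (0.0549), no filter (0.0642), the replicate block (0.0727) or effective-length offsets (0.216). DESeq2 (0.165) and limma on log2(TPM + 1) (0.106) or log2(TPM + 0.1) (0.105) did not call it either. Among feedback inhibitors, 9 of 11 were tested, and 4 rose and 1 fell (median 0.17). Socs1, which blocks JAK kinases, rose to 2.40 ± 0.554 CPM in shUSP8, against 0.714 ± 0.141 CPM in shCtrl (1.74, SE 0.27). Smurf1, a ubiquitin ligase of TGF-beta receptors, rose by 0.25 (SE 0.06; adjusted p = 0.00524, and 0.0635 with effective-length offsets). The inhibitor that fell, named after its value was seen, was the phosphatase gene Ptpn6 (-0.21, adjusted p = 0.0166), a call lost without shUSP8_3 (0.0915), shCtrl_1 (0.0739) or shCtrl_2 (0.0793). The Ptpn6 call was also lost with library totals (0.118) and in limma on log2(TPM + 1) (0.436).

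The adaptors that carry the CSF1R signal moved both ways, with 3 of 12 higher and 4 lower (median 0.10). Plcg2, a phospholipase, rose to 173 ± 6.32 CPM in shUSP8, against 117 ± 2.13 CPM in shCtrl (log2 fold change 0.56, SE 0.05; edgeR adjusted p = 3.22e-06), and Pik3cd, a catalytic subunit of PI3 kinase, rose by 0.50 (SE 0.07). Gab2, a docking adaptor that osteoclast precursors need, fell to 113 ± 3.62 CPM in shUSP8, against 159 ± 10.5 CPM in shCtrl (-0.50, SE 0.06; adjusted p = 3.24e-05). The adaptor genes Dok1, Dok2 and Pik3r1 were also called lower and Shc1 higher, at -0.35, -0.37, -0.21 and 0.17, named after their values were seen. The Pik3r1 call was lost without shUSP8_1 (0.0744), shUSP8_3 (0.0564), shCtrl_2 (0.158) or shCtrl_3 (0.0686), and that of Shc1 without shCtrl_2 (0.0642). Pik3r1 also lost its call with library totals (0.166), effective-length offsets (0.0938), DESeq2 (0.0798) and limma on log2(TPM + 1) (0.624). Without shUSP8_1, 6 of the adaptors were higher and 3 lower, with 4426 of 12579 genes called. On log2(TPM + 1), where 23.1% of all genes were called, 3 were higher and 1 lower. The proteases that shed or cleave surface receptors, CSF1R and IL6RA among their substrates, had 5 of 10 members higher and 1 lower (median 0.18). Adam17, a sheddase of these receptors, rose to 106 ± 6.17 CPM in shUSP8, against 71.9 ± 1.72 CPM in shCtrl (0.56, SE 0.06; adjusted p = 9.34e-06). Rhbdf2, the chaperone that brings ADAM17 to the surface, rose by 0.50 (SE 0.06), and Psen2, a presenilin of gamma-secretase, by 0.57 (SE 0.07). The member that fell, named after its value was seen, was the gamma-secretase subunit gene Psenen (-0.41, adjusted p = 0.0346), a call lost without shUSP8_3 (0.0914), shCtrl_1 (0.110), shCtrl_2 (0.0713) or shCtrl_3 (0.120). The Psenen call was also lost in limma on log2(TPM + 1) (0.19). With effective-length offsets, 3 of the 10 rose and none fell.

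Transcription factors known to drive these receptor genes included 5 of 8 tested that rose and 1 that fell (median 0.75). Cebpa, needed for Csf3r and for myeloid commitment, rose to 29.2 ± 2.72 CPM in shUSP8, against 11.5 ± 0.198 CPM in shCtrl (log2 fold change 1.34, SE 0.08; edgeR adjusted p = 1.24e-07). Irf8, a macrophage factor that restrains osteoclast formation, rose to 36.8 ± 0.562 CPM in shUSP8, against 18.7 ± 0.242 CPM in shCtrl (0.97, SE 0.06). Cebpe, a factor of late granulocytes, rose by 1.04 (SE 0.13). The factor that fell, named after its value was seen, was Spi1, which encodes PU.1, at 559 ± 21.2 CPM in shUSP8 and 668 ± 10.7 CPM in shCtrl (-0.26, SE 0.05; adjusted p = 0.00228). That call was lost with effective-length offsets (0.0623) and on log2(TPM + 1) (0.404). Of the 26 other cytokine receptors listed, 13 were tested, and 7 rose and 1 fell (median 0.26). Il7r, the IL-7 receptor alpha chain, rose to 23.4 ± 2.15 CPM in shUSP8, against 4.03 ± 0.298 CPM in shCtrl (2.54, SE 0.10; adjusted p = 3.21e-09). Tnfrsf1b, the second TNF receptor, rose by 1.86 (SE 0.06), and Il17ra, the IL-17 receptor, by 0.98 (SE 0.06). The receptor that fell, named after its value was seen, was Tnfrsf11a, which encodes RANK (-0.52, SE 0.06).

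**Figure D5:**
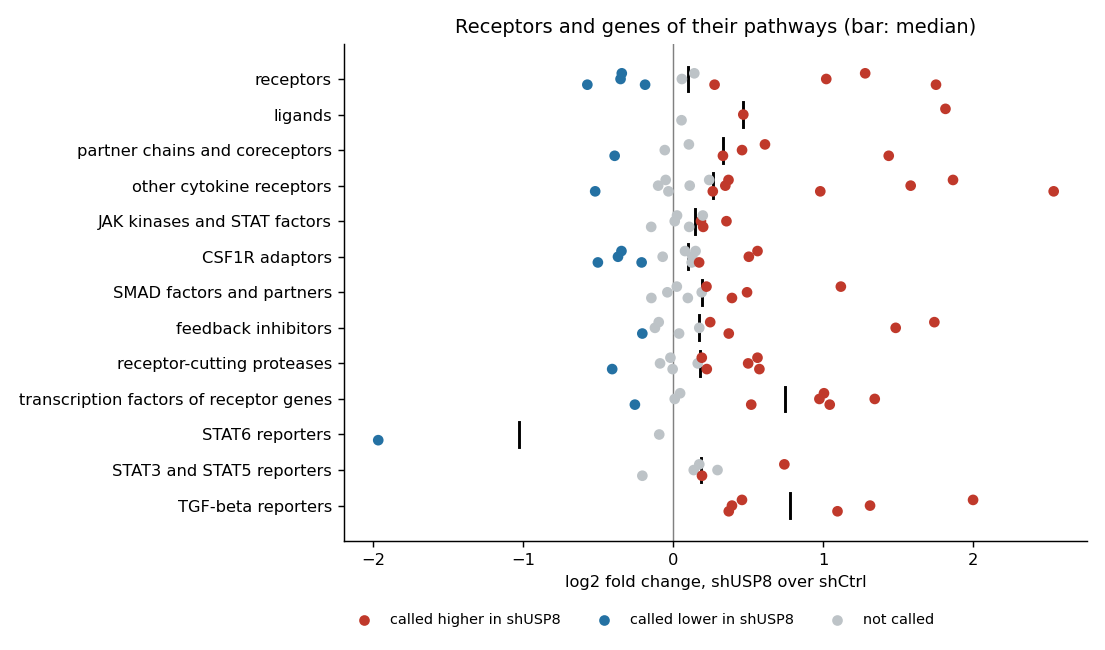
Log2 fold change, shUSP8 over shCtrl, of each tested gene in the receptor class and in 12 lists of pathway genes, with a black bar at the median of each list; red points were called higher in shUSP8, blue points lower and grey points neither. The receptors lie on both sides of 0, while the 6 tested TGF-beta reporters all lie right of it. Among these, Id1 passed the filter on low counts only through shUSP8.

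By the root mean square difference of log2 CPM over the 6 libraries, each gene centred on its shCtrl mean, the genes most like Csf1r among 8689 were Atp5a1 (0.0166), Ncf1 (0.0184) and Coq9 (0.0190). Those most like Il10ra, the receptor with the largest change at a mean log2 CPM of at least 3, were Osgin1 (0.0590), Zfp516 (0.0717) and Gsr (0.0823).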

How the data were processed

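RNA sequencing of 6 libraries was deposited as a pair of tables. The deposited expected counts are estimated fragments per gene (7.16% not whole), and the deposited TPM values are the authors' levels per effective length, scaled to the same sum per library. RSEM, DESeq2 1.28.1 and mm10 are named without roles, per the submitters' processing notes. The aligner, the annotation release and strandedness are not given in the sources used here. Columns named WT and KO were matched to shCtrl and shUSP8 by genotype label and number; Usp8 counts check the group.

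Expected counts were rounded and tested over all 12440 genes passing filterByExpr (minimum count 10, minimum total 15) with the robust quasi-likelihood F test of edgeR 4.0.16 under R 4.3.3 after TMM scaling, Benjamini-Hochberg adjusted, with calls at an adjusted p under 0.05. SE is the absolute log2 fold change over the square root of F, and intervals are 95%. TPM was tested with limma 3.58.1 on log2(TPM + 1) or log2(TPM + 0.1). The pseudocount pulls fold changes of low genes towards 0 on its own, but the median gene lay 0.11 and 0.13 higher on these scales, and some low genes had larger values there than in the count fit (Il4ra 1.23 on log2(TPM + 0.1), against 1.02). DESeq2 1.42.0, RLE, upper quartile and library-total scaling, effective-length offsets (expected count over TPM, where TPM was at least 0.1, 12220 genes), no filter, each library left out in turn and a block for the replicate number were alternatives. The pipeline was tested on simulated data. Chi-square per gene between libraries of a group was 2.27 to 18.3, above counting noise, so none was treated as a library deposited again; this does not show separate cultures.

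Members and lists were chosen with earlier results of these data known. The rule names the 10 receptors, Usp8, up to 3 called genes of each of 12 pathway lists and up to 2 of each of 6 marker lists by smallest p (or, with no call, the 2 of highest CPM), and the 3 genes nearest to the most abundant and the most changed receptor. Other genes were named after their values were seen, and some marker genes that the rule selects are given by their list's sum only. A gene that the rule selects among the TGF-beta reporters is not reported here. Coordinates are GENCODE M21 (GRCm38), and promoters are RefSeq (GRCm38.p6).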

Additional observations from a re-analysis of the deposited data

How the results depend on the processing

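Of 152 receptor values recomputed under the alternatives, 138 kept their direction and side of the threshold. With library totals, Csf1r was at -0.11 and lost its call, and Il6ra was at 0.21 and gained one. On log2(TPM + 1) and log2(TPM + 0.1), calls were lost by Csf1r (-0.11 on both), Csf2rb2 (-0.15 on both) and Tgfbr2 (-0.21 and -0.22), leaving 1 receptor lower on each. Csf2rb turned to -0.032 with effective-length offsets, and the summed beta chains were at -0.14. With a library left out, Csf1r ranged from -0.21 to -0.16, and Csf2rb, not called in any, from 0.03 to 0.08. The cause of these shifts was not tested.

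Same-numbered libraries did not deviate together (correlations of -0.0073, 0.0781 and -0.0542), and shUSP8_1 correlated best with shCtrl_3, so the numbers were not taken as pairs. With the replicate block, 3711 genes were called instead of 4077, Csf1r was at -0.19 (adjusted p = 0.0562) and no other receptor call changed. Over all genes, 2679 were called with effective-length offsets. The share of calls that were higher was 54.4% with TMM factors, 72.6% with library totals and 82.6% on log2(TPM + 1). Of 255 recomputed list medians, 58 moved by over 1 SD between libraries and 1 of those changed sign. Depth limits Csf3r most, at 9 to 51 counts per library.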
